A study of Mus musculus with 6 samples.

Results

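Gli3 sites on CpG-rich DNA at one-way promoters of protein-coding genes were examined in the cortex of wild-type mouse embryos at embryonic day 15 (E15). One-way here means that no start of another gene was annotated nearby on the opposite strand, and transcription itself was not measured. A site belonged to this class when its midpoint fell within 2 kb of the transcription start site (TSS) of a protein-coding transcript, when no TSS of another gene on the opposite strand lay within 2 kb of the midpoint, and when the observed over expected ratio of CpG dinucleotides was 0.6 or more in the 1000 bp centred on the midpoint. The rule used position and genome sequence and no binding strength. On chromosomes 1 to 19, 645 sites met it, or 15.7% of the 4114 sites in the list used here, and the nearest coding TSSs were those of 639 different genes. Of the remaining sites, 440 were at CpG-poor promoters of the same kind, 435 were at promoters with a TSS of another gene on the opposite strand, and 2190 had no TSS within 2 kb and are called nonpromoter sites.

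Chromatin from dissected cortex was immunoprecipitated with an antibody to Gli3 in 3 libraries, and 3 input libraries of sheared chromatin without the antibody step served as controls. All 6 libraries were of wild-type embryos at E15, with no treated or mutant group. The authors joined the libraries into 1 list of positions, so a site carries neither a height nor a value per library, the read depth is unknown here, and no error between embryos could be given. Dissected cortex holds progenitors, neurons and cells of vessels and blood, and the list does not tell which of them a site came from. Intervals and p-values below describe counts over sites and cover counting error only, since sites of 1 list are not replicates of the experiment.

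Gli3 is a zinc finger transcription factor that acts mainly as a repressor when Sonic hedgehog (Shh) is absent, and Shh signalling lowers the amount of that repressor. GLI proteins recognise a short core, here searched as GACCACCCA on both strands, and the related Zic factors recognise a similar word. Promoters rich in CpG, or CpG islands, are mostly free of DNA methylation, tend to hold open chromatin, and belong to housekeeping genes as well as to developmental regulators.

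The highest ratio of the class and both sides of the limit are shown by the central 100 bases of 3 sites. They are on the strand of their gene (mm10), with each CpG in capitals. *Qk*, an RNA-binding protein gene, had the highest ratio of the class at 1.14, with 116 CpGs in 1000 bp and 16 in the bases shown. *Id2*, an inhibitor of basic helix-loop-helix factors, was just inside the limit at 0.601, with 46 CpGs in 1000 bp and 3 in the bases shown. *Sp5*, a zinc finger gene of the Wnt response, was just outside it at 0.599, with 49 and 5. CpG content thus changed little from one side of the limit to the other, where *Fgf11* at 0.6 and *Hlf* at 0.601 were also inside and *Mcm10* and *Nuf2*, both at 0.599, outside. The limit is on a ratio, so sequence of low GC content with few CpGs could also meet it. The fewest CpGs in a member were 18 in 1000 bp, as at the predicted gene *Gm17535*, where the GC content was 34.6%. The *Gm17535* site lay in a block of repeated sequence that is described below.
*Qk*, chr17:10319973-10320072, minus strand: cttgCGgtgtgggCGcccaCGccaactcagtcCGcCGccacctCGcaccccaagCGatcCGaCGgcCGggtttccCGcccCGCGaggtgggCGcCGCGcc
*Id2*, chr12:25098267-25098366, minus strand: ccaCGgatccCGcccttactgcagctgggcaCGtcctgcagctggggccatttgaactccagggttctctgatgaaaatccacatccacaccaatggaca
*Sp5*, chr2:70474222-70474321, plus strand: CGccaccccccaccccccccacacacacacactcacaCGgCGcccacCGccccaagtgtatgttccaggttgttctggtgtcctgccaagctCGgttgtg

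Exact GLI cores were found in 52 of the 645 sites, and the windows below show those at *Ptch1*, the Shh receptor gene and a standard target of the pathway, and those that lay closest to a site midpoint or to a TSS. They are from mm10, on the strand of the core, with the core in capitals. Windows that touched an exon are cut to 29 bases and the others run to 79.
*Ptch1*, chr13:63566400-63566478, plus strand: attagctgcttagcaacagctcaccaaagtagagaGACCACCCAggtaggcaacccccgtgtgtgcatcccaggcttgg
*Golga4*, chr9:118506636-118506714, plus strand: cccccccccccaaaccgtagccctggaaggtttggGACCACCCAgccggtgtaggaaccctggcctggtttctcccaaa
*Rab34*, chr11:78189451-78189529, minus strand: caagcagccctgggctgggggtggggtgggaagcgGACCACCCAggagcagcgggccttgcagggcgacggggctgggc
*Psmc4*, chr7:28049826-28049904, plus strand: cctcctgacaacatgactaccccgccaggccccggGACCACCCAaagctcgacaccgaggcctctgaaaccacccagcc
*Abcc5*, chr16:20425994-20426072, plus strand: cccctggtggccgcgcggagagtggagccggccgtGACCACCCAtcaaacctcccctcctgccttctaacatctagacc
*Tmem64*, chr4:15265658-15265736, plus strand: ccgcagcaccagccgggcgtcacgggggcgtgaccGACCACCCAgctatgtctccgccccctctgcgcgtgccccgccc
*Nubp1*, chr16:10412006-10412034, minus strand: gtcccagcggGACCACCCAcacgtcctgc
*Tpd52l1*, chr10:31445692-31445720, plus strand: ggcgaccggcGACCACCCAccttgtgcct
*Zhx3*, chr2:160872527-160872555, plus strand: tgtcccgcgcGACCACCCAgaccctggac
*Leprotl1*, chr8:34147049-34147077, minus strand: gagaagcagaGACCACCCAtctcacgtgt

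The core at *Golga4*, which encodes a Golgi tether, was centred 5 bp from the middle of its site and 224 bp downstream of the TSS in an intron. The core at *Nubp1* was 14 bp from the midpoint and that at *Rab34*, a small GTPase with a role in ciliogenesis, was 41 bp from it. The core at *Leprotl1* was the closest to a TSS, 30 bp upstream of it, followed by *Zhx3* at 31 bp downstream in an exon and *Abcc5* at 47 bp upstream. At *Ptch1* the core instead lay far from both landmarks, 1486 bp from the midpoint and 1165 bp upstream of the nearest coding TSS. Around the 54 cores of the class, the base at the second position before the core was G in 53.7%, and T was found directly before the core in 7.41%. The base that followed the core was G in 40.7% and C in 31.5%. Sites of the class had a median GC content of 57.2%, and these shares were not tested against a background.

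The first question was where on the promoter these sites lay. The midpoints were close to the TSS, with a median 73 bp downstream of it and the middle 50% of sites between 115 bp upstream and 347 bp downstream. Of the 645 sites, 504 (78.1%) had the midpoint within 500 bp of the TSS, and 605 (93.8%; Wilson 95% confidence interval 91.7% to 95.4%) covered it. The sites over the TSS reached a median 901 bp upstream and 1122 bp downstream. The midpoint was in an exon of the gene in 235 sites (36.4%), in an intron in 245 (38%), and outside the gene in 165 (25.6%).

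More midpoints were downstream of the TSS than upstream of it, 386 (59.8%) against 259. CpG content around the TSS of these genes was itself uneven, with a mean of 9.35 CpGs per 100 bp in the 500 bp downstream and 7.02 in the 500 bp upstream, so the CpG limit favours midpoints on the downstream side. Leaving out sites near an opposite-strand TSS can likewise remove more midpoints upstream than downstream. The class alone was therefore not tested. Across all 1085 sites at one-way coding promoters, CpG-rich and CpG-poor together, 631 (58.2%) were downstream, which differed from equal numbers (exact binomial test, two-sided, p = 8.58e-08). The same was seen where the gene had a single coding TSS and its choice was not in doubt (164 of 267, 61.4%, exact binomial p = 2.27e-04). It also held at the 1008 sites with no opposite-strand TSS of another gene within 4 kb of the TSS, where the opposite-strand rule cannot take more from either side (581, 57.6%, exact binomial p = 1.38e-06), a check chosen after seeing the data. The downstream share in the CpG-rich class did not pass the test against the CpG-poor class, where it was 55.7% (odds ratio 1.19, 95% confidence interval 0.921 to 1.53, Fisher's exact test, adjusted p = 0.301).

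**Figure D1:**
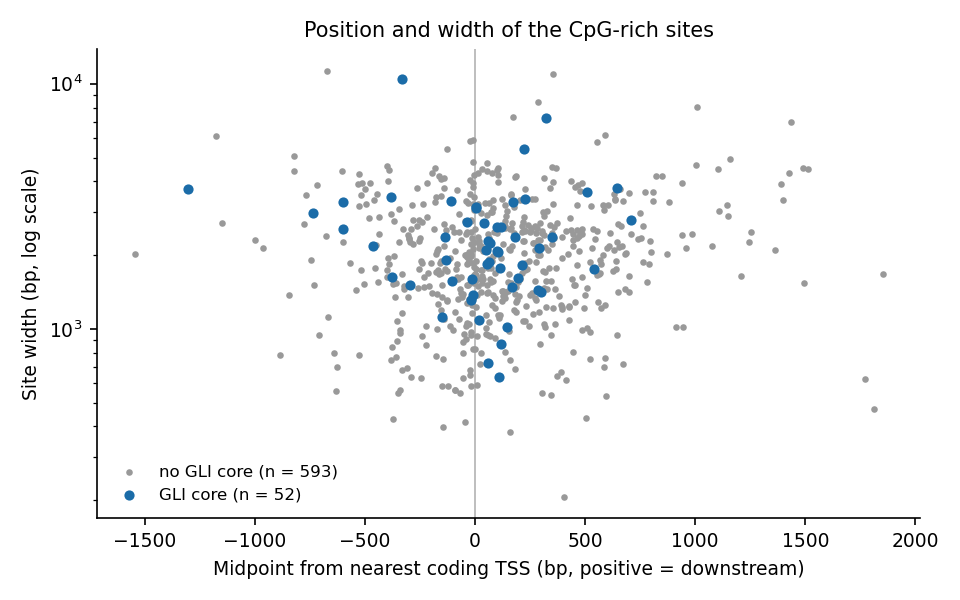
Each point is 1 of the 645 CpG-rich sites, plotted by its midpoint from the nearest coding TSS in bp (x axis, positive downstream) and its width in bp (y axis, log scale), with the 52 sites that hold an exact GLI core in blue and the 593 without one in grey. Most points gather within 500 bp of the TSS, and sites with a core are spread over the range of positions and widths.

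CpG density peaked at the TSS rather than at the middle of the binding site. Averaged over the class in bins of 100 bp, it reached 10.7 CpGs per 100 bp at the TSS and 8.57 at the site midpoint, and fell to 1.4 in the outermost bins 2 kb from the TSS. At CpG-poor sites the TSS bin still held 7.18 CpGs per 100 bp, while the middle of the site held 2.52. The division between the classes was therefore in part one of distance. Of the 440 CpG-poor sites, 197 (44.8%) had a ratio of 0.6 or more when it was measured around the TSS instead of the midpoint, against 617 (95.7%) of the CpG-rich sites, and their midpoints were a median 637 bp from the TSS against 242 bp. These values follow from the rule and were not tested.

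**Figure D2:**
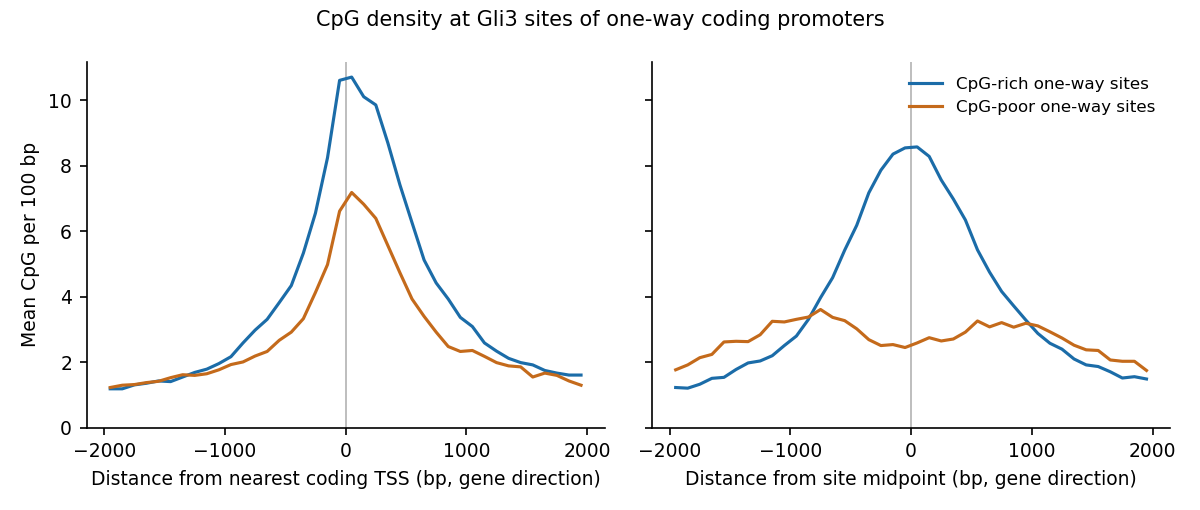
Mean CpG count per 100 bp (y axis) in 100 bp bins around the nearest coding TSS (left) and the site midpoint (right), in bp along the direction of the gene, for the 645 CpG-rich sites (blue) and the 440 CpG-poor sites (orange). Both classes peak at the TSS, at 10.7 and 7.18, and only the CpG-rich class, by its rule, is dense at the midpoint.

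The sites were 207 to 11320 bp wide, with a median of 2000 bp and the middle 50% between 1381 and 2723 bp. The widest lay at *Tnrc18* (11320 bp), *Mn1* (11000 bp), a transcriptional coregulator gene, *Midn* (10473 bp), *Plxnc1* (8433 bp), a semaphorin receptor gene, and *Bcl11a* (8067 bp), a zinc finger factor of cortical projection neurons. The narrowest lay at *Gm10801* (207 bp), *Hist1h3i* (380 bp), *Zfp704* (397 bp), *Dmwd* (415 bp) and *Sestd1* (428 bp). The first 2 of these are in repeated sequence. Sites of the class were narrower than CpG-poor sites, whose median was 2448 bp, with a difference of -448 bp, and narrower than sites at opposite-strand pairs, whose median was 2397 bp, with a difference of -397 bp (each p = 1.00e-05, the smallest that 100000 permutations can give, adjusted p = 2.67e-05). Both differences were smaller when the 1000 bp were centred on the TSS, a setting under which 814 sites met the limit. The first was then -25.5 bp (permutation test, adjusted p = 0.864) and the second -248 bp (permutation test, adjusted p = 0.00696). Sites at opposite-strand pairs were under no CpG limit. Against nonpromoter sites the difference of 121 bp (1879 bp there) did not pass the test (permutation test, adjusted p = 0.0759).

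The second question was how often sites at CpG-rich promoters held a GLI core. The 52 sites with a core made up 8.06% of the class (Wilson 95% confidence interval 6.2% to 10.4%), whereas 17 of 1286 flanking regions of the same lengths held one (1.32%, 0.827% to 2.11%). The share in CpG-poor sites was 9.55% and in opposite-strand pairs 8.51%, and neither difference passed Fisher's exact test (odds ratio 0.831, 95% confidence interval 0.531 to 1.31, adjusted p = 0.505, and 0.943, 0.595 to 1.51, adjusted p = 0.822). With 1 mismatch allowed the share was 57.5% against 72.5% in the wider CpG-poor sites, which passed the test (odds ratio 0.514, Fisher's exact test, adjusted p = 4.03e-06). In the central 200 bp, in the central 1000 bp and among sites of 50 to 60% GC, the odds ratio against CpG-poor sites turned to 1.02, 1.08 and 1.13 and did not pass. Nonpromoter sites held a core more often, 327 of 2190 or 14.9% (odds ratio of the class against them 0.5, 0.36 to 0.682, Fisher's exact test, adjusted p = 2.18e-05). Base composition moved with this difference, since the median GC content was 57.2% in the class and 48.62% in nonpromoter sites. Among sites of 50 to 60% GC the shares were 9.35% and 12.3% and the call was lost (odds ratio 0.734, Fisher's exact test, adjusted p = 0.289). It was also lost with a core of 8 bases, at 18.3% and 21.2% (odds ratio 0.831, Fisher's exact test, adjusted p = 0.216). In the central 200 bp the call did not pass either, at 0.93% and 2.19% (odds ratio 0.419, Fisher's exact test, adjusted p = 0.095). The odds ratio there was lower than over whole sites, and only 6 members held a core. The call held in the central 1000 bp, at 5.12% and 10.1% (odds ratio 0.481, Fisher's exact test, adjusted p = 1.53e-04). With 1 mismatch allowed it held at 57.5% and 65.9% (odds ratio 0.701, Fisher's exact test, adjusted p = 3.40e-04).

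**Figure D3:**
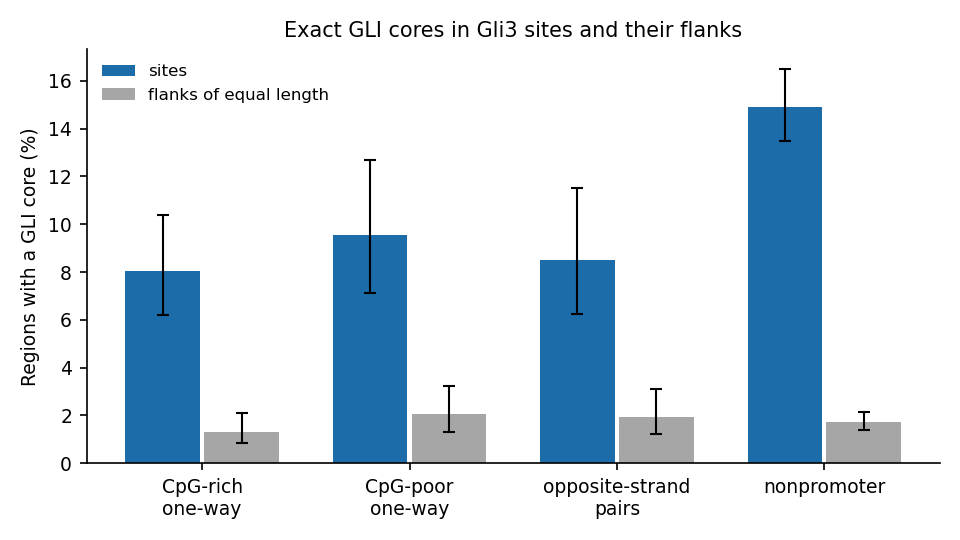
Share of regions with at least 1 exact GLI core (y axis, %) in 4 classes of Gli3 sites (blue) and in flanks of equal length (grey), with Wilson 95% confidence intervals that cover counting error only. The CpG-rich class, at 8.06%, overlaps the other promoter classes and lies below nonpromoter sites at 14.9%, and the flanks of the CpG-rich class are at 1.32%.

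Cores lay both near the middle of the sites and away from it. The 54 cores were a median 393 bp from the midpoint and 484 bp from the TSS. Of them, 33 were within 500 bp of the midpoint, 25 (46.3%) were in the central part when each site was cut into 3 equal parts, and 6 sites (0.93%) held one in the central 200 bp. Of the cores, 29 were downstream of the TSS and 25 upstream, 23 were on the strand of the gene and 31 on the other, and 8 were in an exon, 28 in an intron and 18 outside the gene. The number of cores per Mb was lower in the widest sites, a difference that was not tested. Of the 162 narrowest sites, up to 1381 bp wide, 8 held a core (4.94%, Wilson interval 2.52% to 9.44%). Of the 161 widest, from 2732 bp, 15 did (9.32%, 5.73% to 14.8%), and these intervals overlapped. In 4 groups of sites from narrowest to widest, the density was 50.7, 52.4, 39.7 and 26.7 cores per Mb. A pair of sites held 2 cores each, at *Kcnd2*, a potassium channel gene, and at *Hinfp*, a zinc finger regulator of histone genes. The others included *Tgfb1*, *Wnt2*, *Atoh8*, *Smarca4*, the catalytic subunit of a chromatin remodeller, *Camta1*, *Arntl*, a clock factor, and *Spen*, a corepressor of Notch target genes, at 1 core each.

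The core was also more frequent at CpG-rich promoters with a Gli3 site than at those without. In the annotation, 7237 genes had a one-way coding promoter with a CpG ratio of 0.6 or more around the TSS, and 843 of them (11.6%) had a Gli3 site with its midpoint within 2 kb. A gene with several such TSSs was counted by all of them together, so its site and its core could be at different TSSs. Within the 1000 bp around any such TSS, a core was present in 41 of the 843 (4.86%, Wilson interval 3.61% to 6.53%) and in 34 of the other 6394 (0.532%, 0.381% to 0.742%). These intervals did not overlap, nor did those of genes with a single such TSS (16 of 360, 4.44%, 2.75% to 7.1%, against 12 of 2938, 0.408%, 0.234% to 0.713%). Even so, most promoters with a site had no exact core in that window. None of the 13 other motifs searched differed as much in the ratio of the shares. The SP box GGGCGGGG, bound by Sp factors at many CpG islands, was in 66.1% of promoters with a site and 58.1% without. The CCAAT box was in 63% and 67.3%, the ETS word CCGGAAGT in 8.19% and 10.8%, the NRF1 word GCGCATGCG in 5.58% and 5.22%, the E-box CAGCTG in 44% and 42.4%, and the SOX word ACAATGG in 7.35% and 7.34%. The words that contain CpG are tied to the rule, and none of these shares was tested.

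**Figure D4:**
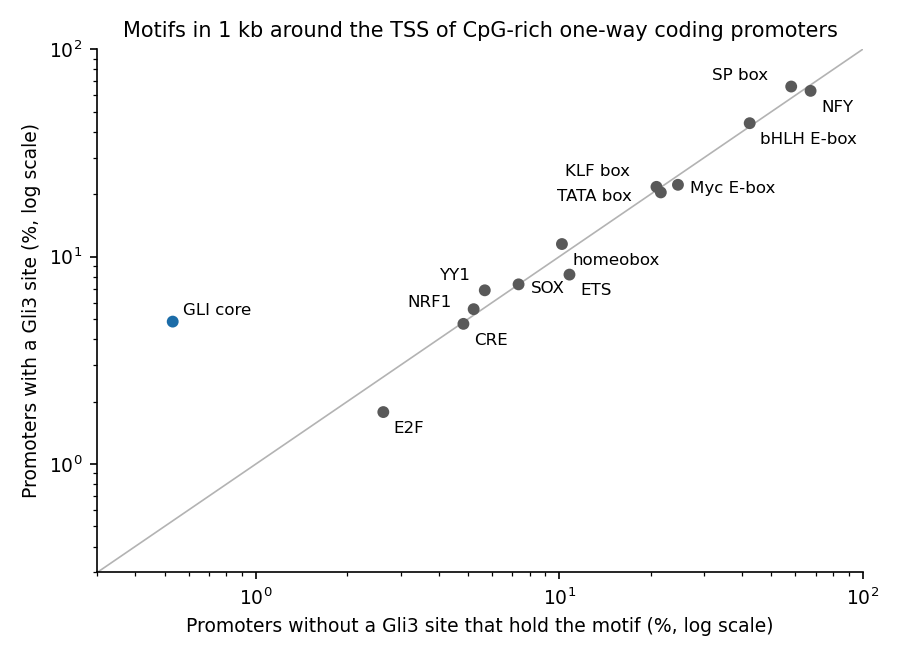
Each point is 1 of 14 motifs, plotted by the share of genes that hold it in the 1000 bp around any of their CpG-rich one-way coding TSSs. Shares are for the 6394 genes without a Gli3 site (x axis, %, log scale) and the 843 with one (y axis, %, log scale), and the line marks equal shares. The GLI core (blue) lies away from the line at 0.532% and 4.86%, while the other motifs (grey) lie near it.

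The share of promoters with a site varied with CpG content, with each gene placed by the highest ratio among its TSSs of this kind. It was 8.07% (6.9% to 9.42%) of 1796 genes at a ratio of 0.6 to 0.7, 10.7% at 0.7 to 0.8, 14% at 0.8 to 0.9, 15% (13% to 17.2%) of 1101 genes at 0.9 to 1, and 12.8% (9.8% to 16.7%) of the 366 genes at 1 or more. The intervals of the lowest bin and of the bin at 0.9 to 1 did not overlap, while that of the highest bin overlapped its neighbour. Among the 3298 genes with a single such TSS the shares were 8.51% (6.96% to 10.4%) at 0.6 to 0.7, 15.9% (12.7% to 19.7%) at 0.9 to 1 and 10.7% (6.33% to 17.4%) at 1 or more. By gene length the share was 11.7% under 5 kb, 9.71% at 5 to 20 kb and 13.8% at 100 kb or more, and by chromosome it ranged from 9.51% on chromosome 10 to 15.1% on chromosome 16.

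The genes at these sites were next described by pathway and family, each list set beside the 11.6% of all CpG-rich one-way coding promoters that had a site. The lists were compiled with results of these data known and carry no test. In the Hedgehog pathway, 3 of 12 genes with such a promoter had a site (25%), namely *Ptch1*, *Gsk3b* and *Kif7*, and the members of the class were at *Ptch1*, *Hhip* and *Gsk3b*. The difference arises because the genes are counted by CpG around the TSS and the sites by CpG around the midpoint. *Ptch1* had a member of 7255 bp (chr13:63561326-63568580) with a CpG ratio of 0.649, 1 core and 6 further sites within 50 kb of the TSS, and its next site (chr13:63570349-63575823) was at an opposite-strand pair and is not counted here. *Hhip*, which encodes a protein that binds and sequesters Shh, had a member of 4107 bp (chr8:80055642-80059748) at a ratio of 0.619 and no core, and its ratio around the TSS was 0.589. *Gsk3b*, a kinase that phosphorylates GLI proteins and beta-catenin, had a member of 3232 bp (chr16:38088175-38091406) at 0.902 and no core. Other pathway genes had sites below the CpG limit, among them *Gli1* with 0.425 and *Kif7* with 0.451. Sites at genes of the Shh pathway were thus found on both sides of the CpG limit.

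The lists with the highest shares were those of Notch signalling, corepressors, the G1 phase of the cell cycle and cortical progenitors. In the Notch pathway with the *Hes*, *Hey* and *Id* genes, 8 of 15 had a site (53.3%), of which those at *Jag1* (4418 bp), a Notch ligand gene, *Notch2* (3534 bp), *Hes1* (2448 bp), *Maml3* and *Hey1* were members. *Id2* (6114 bp) was a member but not among the 8, and the ratio around the TSS nearest to its site was 0.501. Among corepressor genes of the Ncor, Tle and Ski groups the count was 7 of 13 (53.8%), with members at *Gse1* (4048 bp, 7 further sites within 50 kb), *Rcor1*, *Tle4* and *Skil*. For G1 cyclins, Cdk4/6 and Myc genes it was 7 of 18 (38.9%), with *Cdk6* at 5058 bp, *E2f3* at 3504 bp, *Mycl* at 3312 bp and *Mycn* at 1685 bp. Of 20 cortical progenitor transcription factors 7 had a site (35%), with members at *Hmga2* (3933 bp), *Otx1* (2679 bp) and *Insm1* (2639 bp), a factor of basal progenitors. None of the members named in these lists held an exact GLI core. Only 8.06% of the whole class did, so these few members are not set apart by it.

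Other signalling and differentiation lists with a share above the background were closer to it. The Wnt pathway had 6 of 22 (27.3%), with members at *Tcf7l1*, *Axin2*, a feedback inhibitor, *Dvl2*, *Sfrp1* and *Ctnnb1*. Projection neuron factors had 4 of 17 (23.5%), and members there were at 4 genes including *Bcl11a* and *Fezf2* (4794 bp), which specifies deep layer neurons. Gliogenic genes had 3 of 15 (20%), with members at *Nfib* (3678 bp) and *Stat3* (1776 bp). The share was 21.4% for semaphorin, ephrin and Eph genes (6 of 28), 18.2% for Sox genes (2 of 11, *Sox11* at 3253 bp and *Sox12* at 1918 bp), 17.9% for axon guidance genes (5 of 28, some in both lists) and 15% for the BMP and TGF-beta pathway (3 of 20, of which *Tgfb1* held a core). These lists hold 11 to 28 genes, so that 1 gene moves a share by several percentage points.

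The remaining lists lay near or below the background and are grouped here by that share. They hold general cell functions and genes of other cell types, and also transcription factor, signalling and receptor genes. Forkhead genes (3 of 21), Polycomb and trithorax genes (3 of 21), proteasome genes (4 of 28) and DNA replication genes (2 of 14) were each at 14.3%, and the one proteasome site with a core was that of *Psmc4*. Klf and Sp genes were at 11.1% (2 of 18), and ventral and interneuron factors at 9.52% (2 of 21, with members at *Maf* and *Gsx2*). Primary cilium genes were at 8.33% (2 of 24) and *Zfp* genes, the largest list, at 7.97% (11 of 138). FGF pathway genes had 1 of 14, with *Dusp6*, a phosphatase of ERK, as the member, and complex I genes and glutamate and GABA receptor genes had 1 of 15 each. Ribosomal protein genes, which have CpG-rich promoters and are active in every cell, had 3 of 54 (5.56%). No site was found at the 21 *Hox* genes, the 7 LIM homeobox genes, the 3 protocadherin genes, the 1 *Zic* gene or the 2 genes of microglia, endothelium and blood with such a promoter. A count of 0 among 21 allows a share of up to 14.3% and so does not set the *Hox* genes apart from the background, and the other lists at 0 are smaller.

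**Figure D5:**
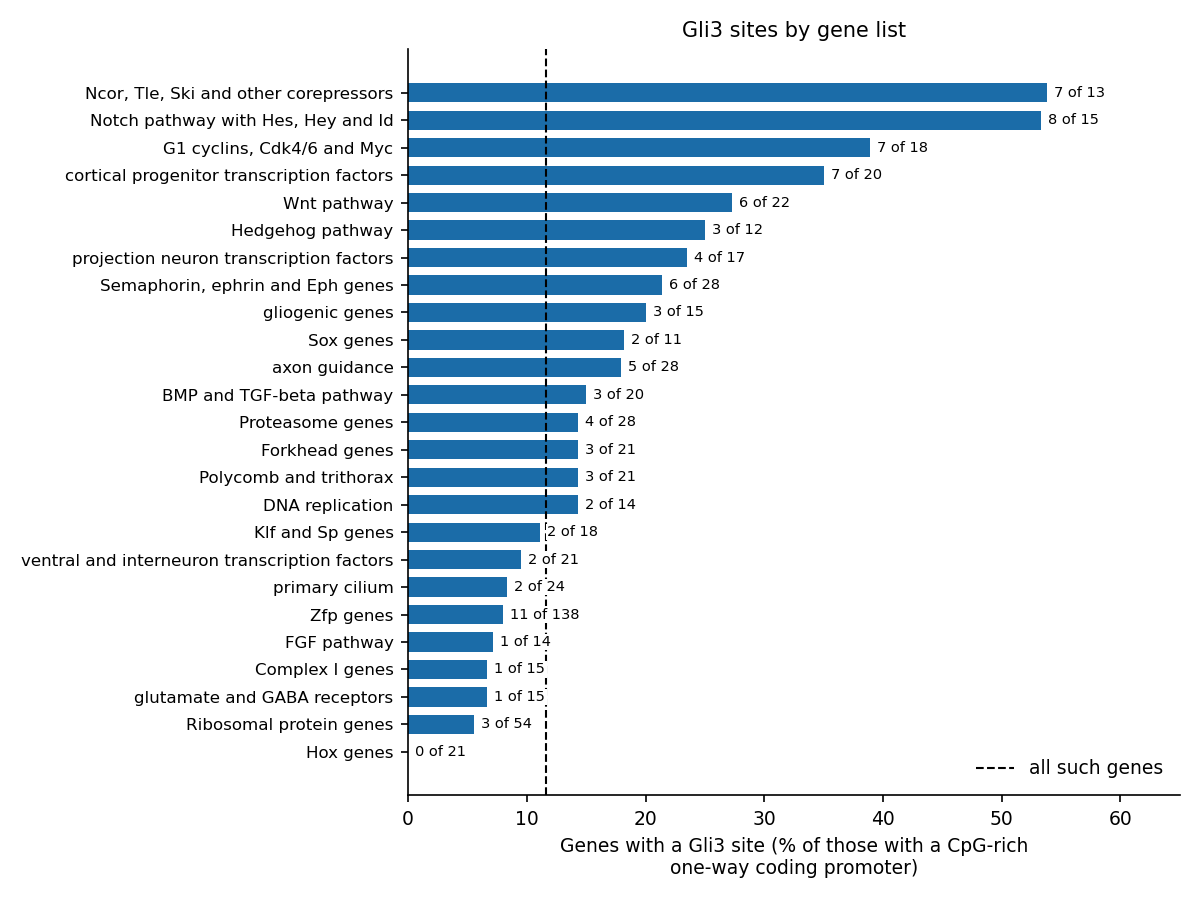
Share of genes with a CpG-rich one-way coding promoter that had a Gli3 site (x axis, %) for each list of 10 or more such genes (y axis), with the counts beside the bars and the dashed line at the 11.6% of all 7237 such genes. Corepressor and Notch pathway lists are highest, at 53.8% and 53.3%, and ribosomal protein and Hox genes are lowest, at 5.56% and 0 of 21.

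Members also differed in whether other Gli3 sites lay near their TSS. All sites were counted whatever gene they belonged to, so promoter sites of neighbouring genes are included. A further site within 50 kb of the TSS, but over 2 kb from it, was present for 175 members (27.1%) and for 134 CpG-poor sites (30.5%), a difference that did not pass the test (odds ratio 0.85, 95% confidence interval 0.645 to 1.12, Fisher's exact test, adjusted p = 0.326). Of the members, 116 had 1 further site and 36 had 2. Those with many included *Foxo6* (8), *Gse1* (7) and *Ptch1* (6), and the 10 members with 10 or 11 were all in the repeated block at the start of chromosome 9.

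Repeated sequence was the last property examined. For 364 members (56.4%) none of the sampled 32-base words occurred elsewhere in the genome, but in 16 (2.48%) over 50% of them did. Of these 16, 10 lay in a block at chr9:3000301-3035785 of predicted genes such as *Gm10717*, *Gm10721* and *Gm11168*, and the others were at *Gm10800*, *Gm10801*, the histone genes *Hist1h3i* and *Hist1h3e*, *Tagap1* and *Fgfr1op*. Reads from such sequence may not be placed with certainty on 1 copy. The words are shorter than the 85 bases used from each fragment end, and read placement was not measured. None of the 16 held a GLI core, and without them the share with a core was 8.27% of 629 sites. Apart from that block, the genes with more than 1 member were *Hivep3*, *Rasgef1b* and *Gadd45g*, with 2 each.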

How the data were processed

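The authors deposited 1 list of positions (chromosome, start, end and name) and no count, height or p-value. Per the file headers and the labels, 85 bases from each end of the fragments were used, repeats were filtered, reads were mapped to mm10 with Bowtie2, SAMtools and MACS2 were used, and the set called optimal by an irreproducible discovery rate (IDR) step was kept. Versions and thresholds are not given in the sources used here. The number and width of sites depend on these settings.

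Starts were converted to 1-based positions. Genes were those of GENCODE M21 and sequence was read from GRCm38, which is mm10. Motifs were searched on both strands in Python 3.11.15 with pysam 0.24.0. Flanks had the length of the site and began 1 site length away. Repeats were sampled as 32-base words every 10 bases on the primary assembly. Shares were compared with two-sided Fisher's exact tests and medians with permutation tests (100000 resamples, scipy 1.17.1), adjusted by Benjamini-Hochberg over 8 tests, and calls were made at an adjusted p of 0.05. The functions were tested on simulated data. The 3 ChIP libraries form 1 pooled list, so sites are the units. The members, the 29 gene lists and the 14 motifs were chosen with earlier results of these data known. Genes named are all Hedgehog genes with a member, up to 4 per other list by number and width of members, those at the extremes of width, CpG and repeats, those at the CpG limit, and those with cores; a few others with a core or in a list were chosen after their values were seen.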

Additional observations from a re-analysis of the deposited data

Results flagged for a closer look

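Sites on the sex chromosomes were outside the comparisons. On chromosome X, 15 of 59 sites (25.4%) met the same criteria for position and CpG content, beside 645 of 4028 (16%) on chromosomes 1 to 19, a difference that was not tested, while none of the 12 sites on chromosome Y did. They included the promoters of *Bcor*, a corepressor gene (5094 bp, CpG ratio 0.95), *Rbbp7*, a histone-binding subunit of chromatin complexes (3211 bp, 0.928), *Ogt* (2455 bp, 0.789), *Hdac6* (1520 bp, 0.763) and *Hprt* (1220 bp, 0.771). None of the 15 held an exact GLI core, beside 8.06% of the class on chromosomes 1 to 19, and 15 sites are too few to set them apart.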

How the results depend on the processing

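The class held 487 to 844 sites under the alternatives tried, which moved the CpG limit, the promoter window, the opposite-strand rule, nearby sites or the place where CpG was measured. No paired analysis was possible because the authors pooled the replicates in 1 list. Of the 62 alternatives to a tested value, 49 kept its direction and its side of the threshold. For the share with a GLI core against CpG-poor sites, the odds ratio was 0.514 with 1 mismatch allowed, a difference that passed the test, and turned to 1.02 in the central 200 bp, 1.08 in the central 1000 bp and 1.13 among sites of 50 to 60% GC, none of which passed it. Against opposite-strand pairs it turned to 1.01, 1.18 and 1.07 in the same settings, again without passing. Against nonpromoter sites it no longer passed in the central 200 bp (0.419), with a core of 8 bases (0.831) or at 50 to 60% GC (0.734). The median width differed from that of CpG-poor sites by -25.5 bp with the CpG window centred on the TSS, and from nonpromoter sites by 270 bp in that setting and 123 bp at a CpG limit of 0.5, both past the threshold. The share of CpG-rich promoters with a site was 10.1% within 1 kb of the TSS, 12.7% at a CpG limit of 0.7 and 10.9% when any overlap with the TSS counted. The cause of these shifts was not tested. Centring the window on the TSS, leaving out sites of over 50% repeated words and leaving out genes with an opposite-strand TSS within 4 kb were chosen after seeing the data. Read depth is unknown here, so its effect on which promoters were called could not be given.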
